A study of Mus musculus with 15 samples.

Results

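The 10 Cyp2c genes described here (Cyp2c29, Cyp2c37, Cyp2c38, Cyp2c39, Cyp2c40, Cyp2c50, Cyp2c54, Cyp2c67, Cyp2c68 and Cyp2c69) were taken by symbol from a table of liver RNA-seq counts for 55573 genes. They are 10 of the 18 rows whose symbol starts with Cyp2c, and all 10 passed the filter on low counts that left 17655 genes for testing. The study asked how loss of estrogen receptor alpha changes the sex differences of the mouse liver. Each library came from 1 mouse aged 8 weeks of the strain B6N(Cg)-Esr1tm4.2Ksk/J, with 3 wild type (WT) females, 3 WT males, 5 homozygous Esr1 knockout (ESR1KO) females and 4 ESR1KO males, written FWT, MWT, FKO and MKO with the mouse number. The deletion of Esr1 exon 3 is present in every tissue and not in liver alone, and the paper describes the mutants as infertile with raised testosterone in both sexes.

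Cyp2c genes encode cytochrome P450 monooxygenases of the endoplasmic reticulum, which take electrons from the reductase Por and oxidise drugs, steroids and fatty acids. Many mouse Cyp2c enzymes turn arachidonic acid into epoxides or hydroxylated products that act as local lipid signals, and Cyp2c39 also hydroxylates retinoic acid. In rodent liver, Cyp2c genes are textbook cases of sex-dependent expression set by the pattern of growth hormone secretion, which acts through STAT5B together with hepatocyte factors such as HNF4A.

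The members lie side by side on chromosome 19 (GRCm38, GENCODE M21 gene spans), between 39269405 and 40113950, a stretch of 844.546 kb. Their order is Cyp2c29, Cyp2c38, Cyp2c39, Cyp2c67, Cyp2c68, Cyp2c40, Cyp2c69, Cyp2c37, Cyp2c54 and Cyp2c50. By transcript sequence they form 3 subgroups of close relatives. Cyp2c40, Cyp2c67, Cyp2c68 and Cyp2c69, neighbours on the minus strand, shared 96.4% to 98.03% of aligned transcript bases. Cyp2c37, Cyp2c50 and Cyp2c54 shared 94.8% to 95.8%, and Cyp2c29, Cyp2c38 and Cyp2c39 shared 87.9% to 93.8%, against 78.2% to 82.5% between subgroups.

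This likeness bears on the counts, since a read that matches several genes cannot be given to one of them. For Cyp2c29, Cyp2c38 and Cyp2c39, 100% of the 100-base windows of the transcript occurred in no other gene. The figure was 95.3% for Cyp2c37, 92.4% for Cyp2c54 and 90.6% for Cyp2c50. It was lower in the Cyp2c40 subgroup, at 80.2% for Cyp2c68, 76.3% for Cyp2c67, 63.7% for Cyp2c69 and 55.9% for Cyp2c40. With 50-base windows it was 88.0% to 97.9% in the Cyp2c29 subgroup and 69.3% to 74.3% in the Cyp2c37 subgroup. In the Cyp2c40 subgroup it was then 56.7% for Cyp2c68, 47.2% for Cyp2c67, 45.2% for Cyp2c69 and 27.9% for Cyp2c40. Levels of these 4 genes are therefore uncertain where the counting dropped or split shared reads, and how the study treated such reads was not given in the sources used here. Cyp2c29 also overlaps the annotated span of the pseudogene Cyp2c53-ps.

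Promoter sequences from RefSeq (GRCm38.p6) matched 9 of the 10 members, with none for Cyp2c54. Each was searched on both strands, from 250 bases before to 50 bases after the RefSeq start site, for the motifs that HNF4A (CAAAGTNCA), STAT5 (TTCNNNGAA) and nuclear receptors (the short site AGGTCA) are known to bind. The HNF4A letters stood in 6 of the 9 windows, each time on the gene's own strand. On either strand they stood in 1.426% of 32544 mouse promoters of the same length. They were CAAAGTCCA in the Cyp2c40 subgroup and CAAAGTGCA in Cyp2c37 and Cyp2c50. The promoters shared 91.6% to 98.9% of aligned bases in the Cyp2c40 subgroup, and 89.5% between Cyp2c37 and Cyp2c50. The 6 windows are therefore not independent cases beside the share of all promoters. The STAT5 letters occurred in 0 of the 9 windows and in 8.327% of all promoters, and AGGTCA occurred in Cyp2c29, as in 16.25% of all promoters. The RefSeq start used for Cyp2c29 lay 17680 bases downstream of the start of its GENCODE span.

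The 150 bases before the start site are printed for the Cyp2c40 subgroup because these 4 promoters share 91.6% to 98.9% of their aligned bases, while the RNA of the same 4 genes ranged from 168-fold higher (Cyp2c69) to 1.67-fold lower (Cyp2c67) in WT females than in WT males. Cyp2c38 and Cyp2c39 are added as the pair whose sex difference changed most with genotype. Capitals mark the HNF4A letters, which begin 45 bases before the start in Cyp2c40, 75 in Cyp2c69, 77 in Cyp2c68 and 125 in Cyp2c67. These distances shift with the start that is annotated, so they do not by themselves show a different spacing. The RefSeq start lay 0 bases from the GENCODE start in Cyp2c40. It lay 30 bases downstream in Cyp2c69, 9 downstream in Cyp2c67 and 47 upstream in Cyp2c68.
Cyp2c40, chr19:39812815-39812964, minus strand: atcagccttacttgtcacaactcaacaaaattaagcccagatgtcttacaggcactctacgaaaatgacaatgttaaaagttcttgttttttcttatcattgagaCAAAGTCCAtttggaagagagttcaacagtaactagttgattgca
Cyp2c69, chr19:39886770-39886919, minus strand: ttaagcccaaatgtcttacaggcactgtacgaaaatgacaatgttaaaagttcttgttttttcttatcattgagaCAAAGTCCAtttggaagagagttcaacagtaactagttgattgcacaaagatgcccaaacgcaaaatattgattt
Cyp2c68, chr19:39741102-39741251, minus strand: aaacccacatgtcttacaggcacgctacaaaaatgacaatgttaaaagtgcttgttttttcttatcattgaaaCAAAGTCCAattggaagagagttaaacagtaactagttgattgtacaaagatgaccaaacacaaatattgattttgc
Cyp2c67, chr19:39649043-39649192, minus strand: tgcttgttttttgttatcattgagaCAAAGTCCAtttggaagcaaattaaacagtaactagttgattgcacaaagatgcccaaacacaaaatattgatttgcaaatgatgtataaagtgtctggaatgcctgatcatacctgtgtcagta
Cyp2c38, chr19:39463076-39463225, minus strand: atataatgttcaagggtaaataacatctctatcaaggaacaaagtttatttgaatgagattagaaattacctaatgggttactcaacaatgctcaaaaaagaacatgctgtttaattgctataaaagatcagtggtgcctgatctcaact
Cyp2c39, chr19:39510672-39510821, plus strand: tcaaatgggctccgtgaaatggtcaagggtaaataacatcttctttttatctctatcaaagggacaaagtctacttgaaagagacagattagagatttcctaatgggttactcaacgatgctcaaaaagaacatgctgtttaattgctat
The Cyp2c40 and Cyp2c69 promoters were identical at 98.9% of aligned bases, and those of Cyp2c67 and Cyp2c69 at 92.8%. Cyp2c38 and Cyp2c39 shared 88.6% and held none of the 3 motifs in these windows.

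Libraries held between 27799061 and 78624766 counts, and single members between 26 and 95879 counts per library. Values are CPM, counts scaled to a common library total after TMM normalization, with factors from 0.957 to 1.04. Esr1, the targeted gene, was at 74.7 to 88.2 CPM in FWT, 25.0 to 52.0 in MWT, 9.67 to 19.7 in FKO and 8.22 to 16.1 in MKO mice. The hepatocyte marker Alb was abundant in every library, at 53545 to 91604 CPM. Summed markers of other liver cells ranged over the 4 groups from 151 to 233 CPM for 6 leukocyte genes, 234 to 371 CPM for 4 endothelial genes, 182 to 297 CPM for 4 stellate and fibroblast genes and 3.12 to 5.50 CPM for 4 cholangiocyte genes. The 6 leukocyte genes summed to 190 to 233 CPM in FWT and 172 to 185 in MWT, without overlap. They summed to 196 to 233 CPM in FKO and 151 to 190 in MKO, again without overlap. Endothelial sums were 333 to 349 CPM in FWT and 234 to 329 in MWT, and overlapped between the ESR1KO sexes. Cholangiocyte sums were 4.69 to 5.50 CPM in MKO and 3.28 to 4.31 in MWT, without overlap. Stellate sums overlapped between all groups. In whole liver, fewer cells of a type and less RNA per cell cannot be told apart.

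Summed over the 10 members, Cyp2c RNA was 4156 ± 358 CPM in FWT (SD, n = 3), 2246 ± 347 in MWT (n = 3), 3732 ± 706 in FKO (n = 5) and 2733 ± 466 in MKO (n = 4). No WT male reached the lowest WT female, whereas ESR1KO females, at 2737 to 4708 CPM, overlapped ESR1KO males, at 2241 to 3357. The Cyp2c40 subgroup took 1549.8 ± 250.4 CPM of this sum in FWT but 391 ± 72.9 in MWT, then 973 ± 250.2 in FKO and 344 ± 83.6 in MKO. By contrast the Cyp2c29 subgroup stood at 1016 ± 41.5 CPM in WT females and 980.4 ± 181 in WT males.

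Per kilobase of the longest coding transcript of each gene, Cyp2c29 was the most and Cyp2c39 the least abundant member in each of the 4 groups, at means of 490.4 and 5.58 CPM per kb in WT females. Cyp2c69 was the second most abundant member of WT females, at 420.2 CPM per kb, and the ninth of WT males, at 2.51. In WT females the per-kilobase ranges of Cyp2c29, Cyp2c69, Cyp2c50, Cyp2c37 and Cyp2c68 overlapped from each to the next, so their order is not fixed by 3 mice. In WT males, Cyp2c29 (541), Cyp2c50 (313) and Cyp2c67 (135 CPM per kb) led with no overlap between neighbours in the order. Shared reads bear on this order, since 63.7% of the 100-base windows of Cyp2c69 but 100% of those of Cyp2c29 occurred in no other gene. The length used bears on it too. Per kilobase of the union of annotated exons, a measure added after seeing the data, Cyp2c69 (405 CPM per kb) came before Cyp2c37 (291) and Cyp2c29 (286) in WT females, again with overlap from each to the next. On that measure Cyp2c29 still led in the other 3 groups, at 315 CPM per kb in WT males, where Cyp2c50 (194) overlapped Cyp2c67 (135).

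Cyp2c29 supplied 21.2% of the member total in FWT, 42.9% in MWT, 35.8% in FKO and 50.5% in MKO. Cyp2c69 supplied 16.4% in FWT, 0.186% in MWT, 3.47% in FKO and 0.0756% in MKO. Within the Cyp2c40 subgroup, WT females were led by Cyp2c69 with 43.9% and WT males by Cyp2c67 with 59.9%. ESR1KO females were led by Cyp2c68 with 39.6%, ahead of Cyp2c67 with 26.3%.

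**Figure D1:**
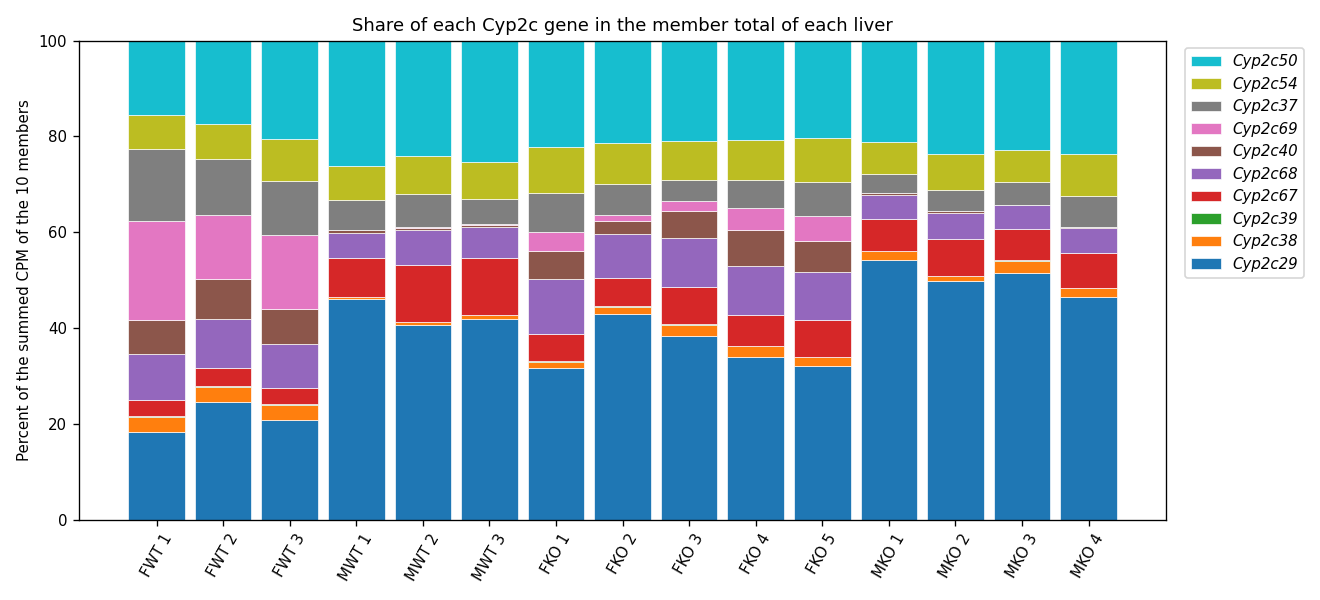
Each bar is 1 liver, and its colours give the percent of the summed CPM of the 10 members that each gene supplied. Cyp2c69 fills 16.4% of the mean WT female bar and 3.47% of the mean ESR1KO female bar, and is too thin to see in males.

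WT females against WT males gave the baseline sex difference. Of the 10 members, 7 were higher in females (adjusted p under 0.05, edgeR quasi-likelihood test), against 2.67% of all genes tested. One member, Cyp2c67, was lower in females, against 2.2% of all genes, and Cyp2c29 and Cyp2c50 did not pass. Of these, 5 differed by 1.5 or more on the log2 scale, against 1.81% of all genes. The median member log2 difference was 1.71, beside 0.01 over all genes.

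Cyp2c69 had the widest gap of the cluster. It was at 928, 512 and 635 CPM in FWT 1 to 3 and at 4.42, 4.03 and 3.93 in MWT 1 to 3. The sexes were far from overlapping, and the fitted difference was 168-fold (log2 7.39 ± 0.66 SE, adjusted p = 1.29e-06, edgeR). Cyp2c40, whose enzyme hydroxylates arachidonic acid, was at 326, 317 and 307 CPM in WT females and 11.1, 10.1 and 8.66 in WT males, which was 31.8-fold (log2 4.99 ± 0.45, adjusted p = 1.55e-06, edgeR). Cyp2c68, the neighbour of Cyp2c40 on the chromosome, was 2.81-fold higher in females, at 429, 392 and 383 CPM against 129, 178 and 121 (adjusted p = 0.000322, edgeR).

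Cyp2c67 went the other way. It was at 150.3, 137 and 133 CPM in WT females and 203, 283 and 217 in WT males, so that every male was above every female. The female value was 1.67-fold lower (log2 -0.74 ± 0.19, adjusted p = 0.0347, edgeR), a call lost when any WT female, MWT 2 or MWT 3 was left out (adjusted p up to 0.169, from 0.0151 over all 15 omissions). The ratio of Cyp2c69 to Cyp2c67 CPM was 3.72 to 6.18 in the WT females and 0.0143 to 0.0218 in the WT males.

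Cyp2c38 and Cyp2c39, a neighbouring pair of the Cyp2c29 subgroup, were also strongly female-high. Cyp2c38 was at 141, 123 and 132 CPM in WT females and 12.6, 16.7 and 15.3 in WT males, which was 8.89-fold (log2 3.15 ± 0.19, adjusted p = 7.22e-09, edgeR). Cyp2c39, the retinoic acid hydroxylase, was a scarce transcript at 11.6, 9.04 and 9.83 CPM in WT females and 0.741, 0.636 and 0.856 in WT males. It was 13.5-fold higher in females (log2 3.75 ± 0.23, adjusted p = 1e-08, edgeR). Cyp2c29, the abundant arachidonic acid epoxygenase next to them, was at 828.9, 931 and 863 CPM in females and 1138, 982 and 774 in males, and its groups overlapped (log2 -0.14, 95% interval -0.53 to 0.25).

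In the Cyp2c37 subgroup, which holds epoxygenases of arachidonic and linoleic acid, the sex differences were smaller. Cyp2c37 was at 676, 443 and 473 CPM in WT females and 154, 168 and 96.8 in WT males, or 3.80-fold higher in females (adjusted p = 0.00184, edgeR). Cyp2c54 was at 324, 277 and 361 CPM against 173, 189.8 and 140.4, or 1.91-fold higher (adjusted p = 0.0247, edgeR). The Cyp2c54 call was lost without FWT 1, FWT 3, MWT 1 or MWT 3 (adjusted p up to 0.108, from 0.0101). Cyp2c50 was at 702, 659.5 and 854 CPM in females and 650.1, 583 and 469 in males. Its groups just failed to overlap, and its log2 difference of 0.38 did not pass (95% interval -0.05 to 0.81, adjusted p = 0.369, edgeR).

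**Figure D2:**
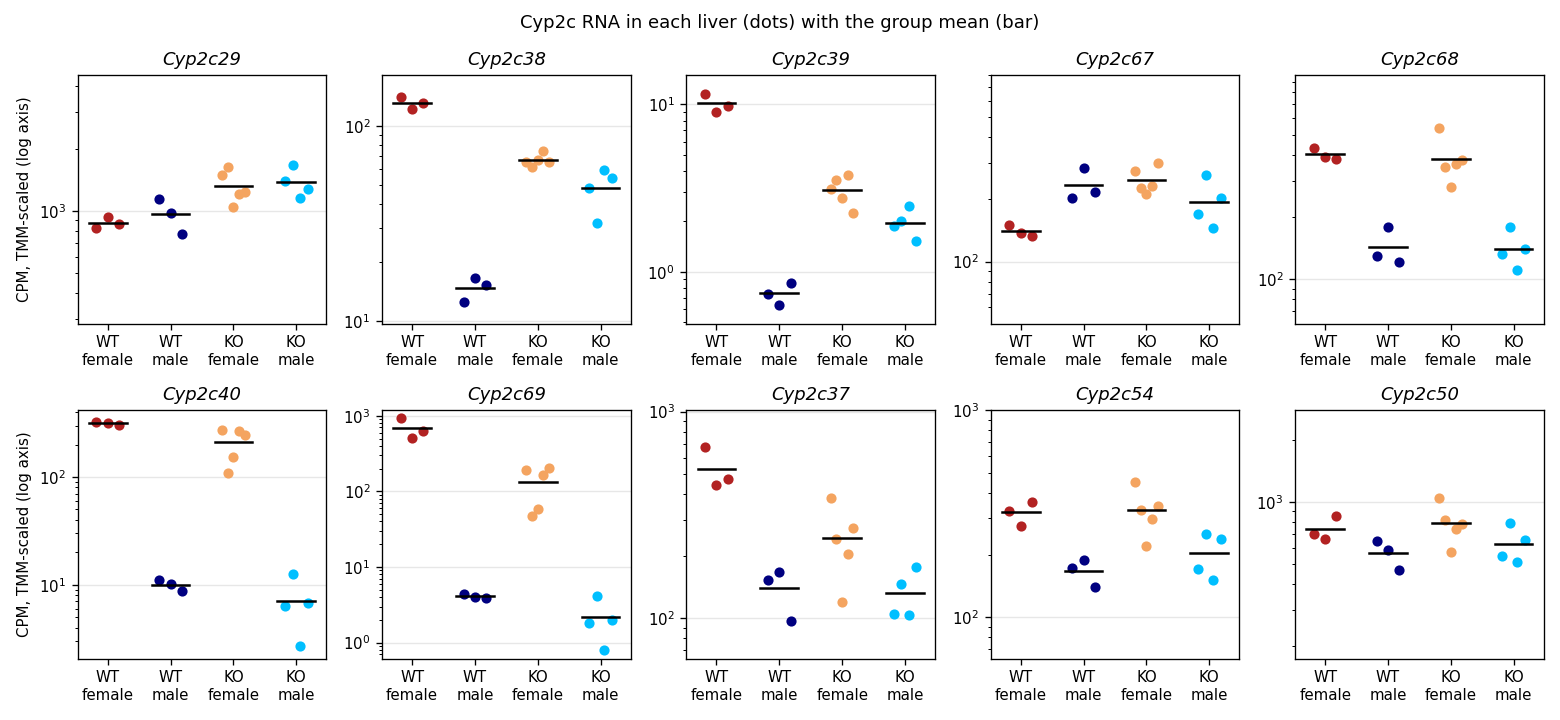
Each dot is the CPM of 1 liver on a log axis and each bar a group mean, with members in chromosome order. Cyp2c40 and Cyp2c69 separate the sexes in both genotypes, while Cyp2c38 and Cyp2c39 of the ESR1KO mice lie between the WT females and WT males.

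Between ESR1KO females and ESR1KO males, 3 of the 10 members differed. Cyp2c40, Cyp2c68 and Cyp2c69 were higher in females, against 0.159% of all genes, and 0 members were lower, against 0.113% of all genes. At an unadjusted p under 0.05, 8 members were higher and 0 lower by edgeR, and DESeq2 called 6 higher and 0 lower. On the log2 scale 2 members differed by 1.5 or more, against 0.142% of all genes, and the member median was 0.67 beside 0.01 over all genes.

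Cyp2c40 was at 275, 109.7, 155, 267 and 248 CPM in FKO 1 to 5 and at 6.36, 12.6, 2.68 and 6.74 in MKO 1 to 4, which was 29.9-fold (log2 4.90 ± 0.39, adjusted p = 2.15e-06, edgeR). Cyp2c69 was at 189, 48.0, 58.7, 163 and 205 CPM in ESR1KO females and 1.84, 4.11, 0.801 and 2.01 in ESR1KO males, or 61.2-fold higher in females (log2 5.94 ± 0.54, adjusted p = 1.39e-05, edgeR). Cyp2c68 was at 538, 348, 279, 361 and 378 CPM against 133, 179, 110.3 and 139, or 2.71-fold higher (log2 1.44 ± 0.18, adjusted p = 0.00071, edgeR). The 2 sexes did not overlap for any of these 3 genes. Their ESR1KO log2 sex differences were 0.981, 0.803 and 0.967 times the WT differences of Cyp2c40, Cyp2c69 and Cyp2c68.

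For Cyp2c38 the ESR1KO females, at 65.2, 61.6, 66.9, 74.4 and 65.5 CPM, stood just above the males, at 47.9, 31.8, 59.5 and 54.0. The log2 difference of 0.46 did not pass (95% interval 0.16 to 0.76, adjusted p = 0.145, edgeR) and was 0.147 times that of WT mice. Cyp2c39 was at 3.12, 3.56, 2.76, 3.80 and 2.25 CPM in ESR1KO females and 1.88, 2.01, 2.46 and 1.53 in ESR1KO males, with overlap. Its log2 difference of 0.65 was 0.174 times that of WT mice (adjusted p = 0.107, edgeR, between 0.0281 and 0.261 over the alternatives).

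Cyp2c37 was at 383, 243, 119.9, 205 and 275 CPM in ESR1KO females and 105, 146, 104 and 177 in ESR1KO males. Cyp2c54 was at 452, 329, 220.3, 297 and 346 CPM against 171, 253, 152 and 239. In both the sexes overlapped, and neither passed with edgeR (adjusted p = 0.149 for Cyp2c37 and 0.116 for Cyp2c54), although both passed with DESeq2 (adjusted p of 0.0367 and 0.0242). Cyp2c67 and Cyp2c50 had log2 differences of 0.36 and 0.34, and Cyp2c29 of -0.06, and none of the 3 passed.

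**Figure D3:**
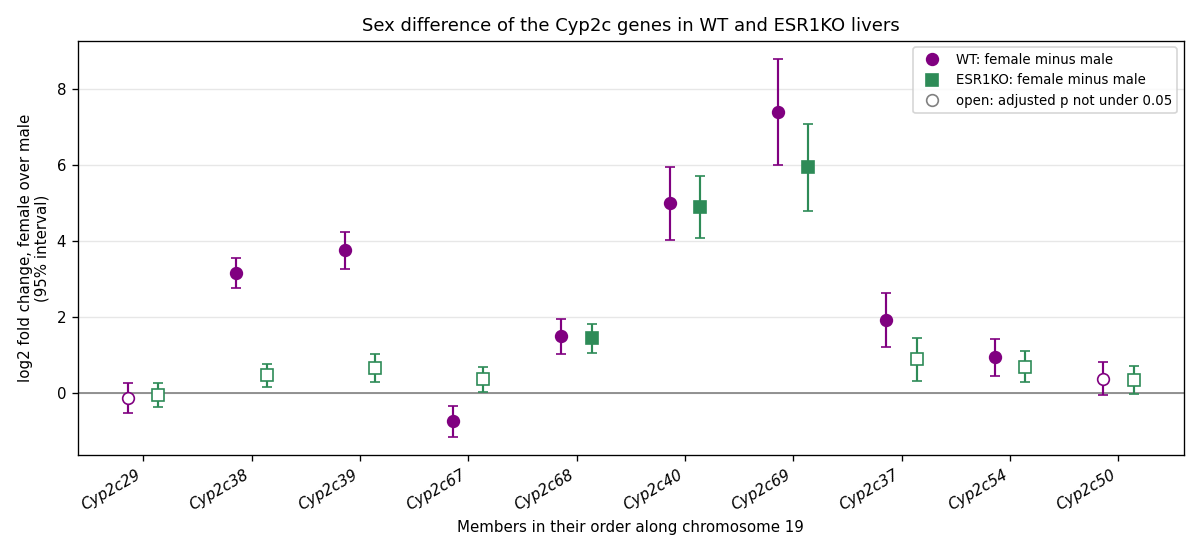
Points give log2 female over male CPM from the fit with the 95% interval, circles for WT and squares for ESR1KO mice, filled where the adjusted p was under 0.05. WT and ESR1KO points nearly coincide for Cyp2c68 and Cyp2c40 and are far apart for Cyp2c38 (3.15 and 0.46) and Cyp2c39 (3.75 and 0.65).

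Whether genotype changed the sex difference was tested by the interaction, the log2 change with genotype in females less the same change in males. It was positive for 1 member, against 1.02% of all genes, and negative for 2 members, against 0.923% of all genes, and 2 reached 1.5 in size, against 1.09% of all genes. The median member value was -0.17, beside -0.01 over all genes. Cyp2c38 had an interaction of -2.69 ± 0.23 (adjusted p = 2.02e-06, edgeR) and Cyp2c39 of -3.10 ± 0.28 (adjusted p = 4.89e-06). Cyp2c67 had 1.09 ± 0.25 (adjusted p = 0.0298, edgeR), lost when any WT female, MWT 2, MKO 1, MKO 3 or MKO 4 was left out (adjusted p from 0.00476 to 0.0995). For Cyp2c40 it was -0.09 with a 95% interval of -1.16 to 0.98, and for Cyp2c68 -0.05 with an interval of -0.63 to 0.54. A narrowing as large as that of Cyp2c38 or Cyp2c39 lay outside both intervals. Cyp2c69 had an interaction of -1.45 ± 0.68 and Cyp2c37 of -1.05 ± 0.42, and neither passed (adjusted p = 0.35 and 0.275, edgeR). For Cyp2c69 the log2 sex difference was 7.39 in WT and 5.94 in ESR1KO mice, and whether it narrowed is not settled. At an unadjusted p under 0.05, the interaction was positive for 1 member and negative for 4 by edgeR. DESeq2 called 1 positive and 2 negative.

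ESR1KO females against WT females gave the genotype effect in females. Here 2 members were higher, against 3.14% of all genes, and 4 were lower, against 2.57%. On the log2 scale 2 members changed by 1.5 or more, against 1.2% of all genes, and the member median was -0.33 beside -0.0013 over all genes. The 2 largest changes were decreases. Cyp2c69 dropped from a mean of 692 ± 214 CPM (SD, n = 3) to 133 ± 74.1 (n = 5), and its log2 value fell by 2.38 (SE 0.43, adjusted p = 0.00364, edgeR). Cyp2c39 went from 10.1 ± 1.29 to 3.10 ± 0.621 CPM and fell by 1.72 on the log2 scale (SE 0.17, adjusted p = 8.06e-06, edgeR). Cyp2c38 went from 132 ± 9.30 to 66.7 ± 4.73 CPM, which was 1.98-fold lower (adjusted p = 0.000766, edgeR). No ESR1KO female reached the lowest WT female for any of these 3 genes.

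The remaining calls in females were less firm, and 3 of the 6 were left without FWT 2 or without FWT 3. With the 2 female groups fitted alone, Cyp2c37 and Cyp2c29 no longer passed (adjusted p = 0.0739 and 0.1, edgeR). Cyp2c37 was 2.16-fold lower in ESR1KO females (adjusted p = 0.0322, edgeR), a call lost when any WT female, FKO 2 or FKO 4 was left out (adjusted p from 0.00896 to 0.15). Cyp2c67 rose from 140.3 ± 8.94 to 249 ± 37.2 CPM, or 1.77-fold (adjusted p = 0.0114, edgeR), and the call was lost without FWT 2 or FWT 3 (adjusted p up to 0.0712, from 0.00456). Cyp2c29 rose from 874 ± 51.8 to 1324 ± 236 CPM, or 1.51-fold (adjusted p = 0.048, edgeR). This call was lost when any WT female, MWT 2, FKO 1, FKO 2, FKO 4, MKO 1, MKO 3 or MKO 4 was left out (adjusted p from 0.0269 to 0.165), although the 2 genotypes did not overlap. Cyp2c40 was at 317 ± 9.21 CPM in WT and 211 ± 74.3 in ESR1KO females, all ESR1KO values lying below all WT values, and its log2 difference of -0.59 did not pass (95% interval -1.29 to 0.12). Cyp2c68 (401 and 381 CPM), Cyp2c54 (321 and 329 CPM) and Cyp2c50 (738 and 791 CPM) overlapped between the genotypes.

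In males, ESR1KO against WT, 2 members were higher, against 0.833% of all genes, and 0 were lower, against 0.583%. At an unadjusted p under 0.05, edgeR gave 3 higher and 0 lower members, and DESeq2 called 2 higher and 0 lower. Cyp2c38 was the 1 member that changed by 1.5 or more on the log2 scale, against 0.578% of all genes, and the member median was 0.06 beside -0.0011 over all genes. Cyp2c38 rose from 14.8 ± 2.07 CPM (SD, n = 3) to 48.3 ± 12 (n = 4), or 3.26-fold (log2 1.70 ± 0.17, adjusted p = 6.66e-05, edgeR). Cyp2c39 rose from 0.744 ± 0.110 to 1.97 ± 0.383 CPM, or 2.61-fold (log2 1.38 ± 0.22, adjusted p = 0.00384, edgeR). Every ESR1KO male was above every WT male for both genes, which in females were lower in the mutants.

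Cyp2c29 was at 965 ± 182 CPM in MWT and 1376 ± 224 in MKO mice, without overlap, and its log2 difference of 0.51 did not pass (95% interval 0.14 to 0.88, adjusted p = 0.2, edgeR). Cyp2c69 was at 4.13 ± 0.258 CPM in MWT and 2.19 ± 1.38 in MKO mice, and Cyp2c40 at 9.96 ± 1.22 and 7.10 ± 4.10. Both overlapped between genotypes. So did Cyp2c67 (234 and 194 CPM), Cyp2c68 (143 and 140.3), Cyp2c37 (139 and 133), Cyp2c54 (168 and 204) and Cyp2c50 (567 and 625).

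**Figure D4:**
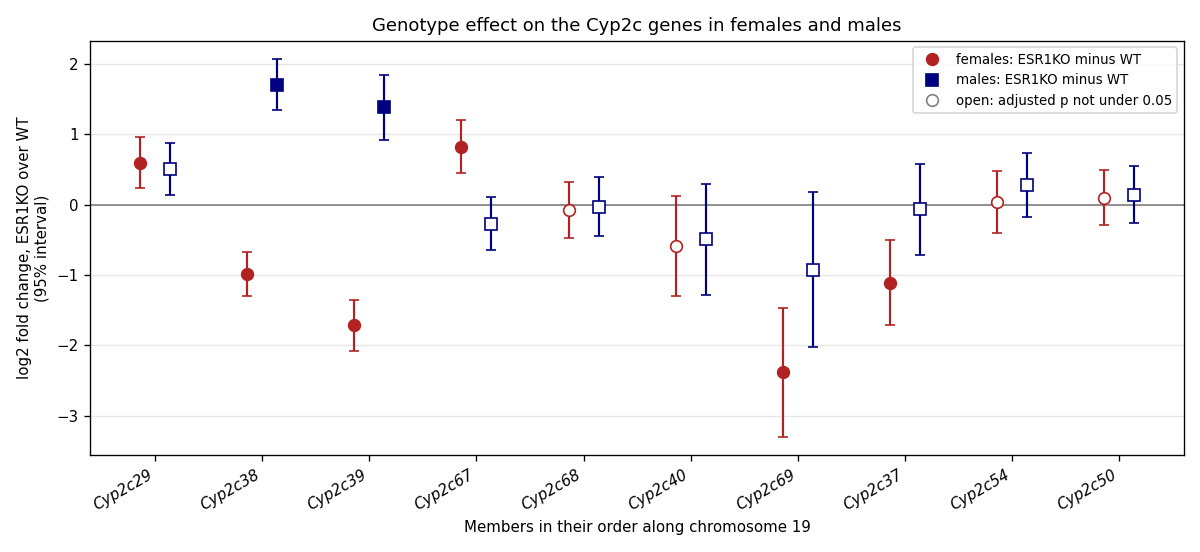
Points give the fitted log2 difference of ESR1KO from WT mice with its 95% interval, circles for females and squares for males, filled where the adjusted p was under 0.05. Cyp2c38 and Cyp2c39 are below 0 in females (-0.98 and -1.72) and above 0 in males (1.70 and 1.38), and Cyp2c69 has the lowest female value (-2.38).

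ESR1KO females were also set against WT males, to place them between the WT sexes. Of the members, 6 were higher in the ESR1KO females, against 1.38% of all genes, and 0 were lower, against 1.23% (0 lower also at an unadjusted p under 0.05 by edgeR, where 9 were higher, and by DESeq2). On the log2 scale 4 differed by 1.5 or more, against 0.816% of all genes, and the member median was 1.19 beside 0.03 over all genes. Cyp2c69 was 32.2-fold higher than in WT males (adjusted p = 6.71e-05, edgeR), Cyp2c40 21.2-fold (1.02e-05), Cyp2c38 4.49-fold (1.01e-06), Cyp2c39 4.10-fold (2.35e-05) and Cyp2c68 2.66-fold (0.000682). Cyp2c54 was 1.96-fold higher (adjusted p = 0.0207, edgeR), a call lost without MWT 1 or MWT 3 (adjusted p up to 0.124, from 0.00606) and with these groups fitted alone (0.052).

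On a scale of log2 CPM where the mean WT female is 0 and the mean WT male 1, ESR1KO females averaged -0.0073 for Cyp2c54, 0.0715 for Cyp2c68, 0.134 for Cyp2c40, 0.312 for Cyp2c38, 0.352 for Cyp2c69, 0.464 for Cyp2c39, 0.611 for Cyp2c37 and 1.12 for Cyp2c67. Thus, on this scale, Cyp2c54, Cyp2c68 and Cyp2c40 of the mutant females were on average near the WT female level. The unit of the scale is each gene's own WT difference, so equal positions are not equal fold changes. For Cyp2c40, 0.134 went with 317 ± 9.21 CPM in WT and 211 ± 74.3 in ESR1KO females, without overlap. Single ESR1KO females spanned -0.538 to 0.568 for Cyp2c54 and 0.228 to 1.09 for Cyp2c37. Cyp2c67 was on average near the WT male level. The Cyp2c67 values of ESR1KO females, 274, 226, 212, 231 and 301 CPM, overlapped those of WT males (log2 difference 0.09, 95% interval -0.28 to 0.45). These comparisons share the ESR1KO females or the WT males with those above and are no separate evidence.

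The 5 ESR1KO females differed more among themselves for some members than for others. The highest was 4.27 times the lowest for Cyp2c69, 3.20 times for Cyp2c37 and 2.51 times for Cyp2c40, but 1.21 times for Cyp2c38. Spread among these mice was not limited to the members. Chi-square per gene, a measure of how far 2 libraries differ over all genes, was 72.1 to 422 within FKO. Within the other groups it was 26.1 to 72.4. For Por, FKO 1 and FKO 2 were the lowest, at 184 and 204 CPM, against 284 to 387 in FKO 3 to 5. FKO 2 and FKO 3 were the lowest pair for Cyp2c69 and Cyp2c40, and FKO 1, FKO 4 and FKO 5 were higher for both genes. Cux2, a female-biased liver transcription factor, was at 4.53, 1.71, 1.88, 3.29 and 10.8 CPM in FKO 1 to 5, which put the 5 mice in the same order as Cyp2c69. Its part in the Cyp2c69 values was not tested. Cux2 was at 35.5 to 57.9 CPM in WT females and 0.464 to 0.840 in WT males.

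Genes outside Cyp2c with the nearest pattern over the 15 mice were found by the root mean square distance of mean-centred log2 CPM. For Cyp2c69 and Cyp2c40 the nearest was Cux2, at distances of 1.43 and 1.34, beside root mean square spreads of 3.39 and 2.55 for the members around their own means. The second was Gm6135 for Cyp2c69 (1.87) and Gm38811 for Cyp2c40 (1.46). Smaller distances were those of Prom1 (0.322) and the monooxygenase Fmo2 (0.418) for Cyp2c37, 4732463B04Rik (0.345) and the lipoprotein receptor Vldlr (0.376) for Cyp2c38, and the proton pump subunit Atp6v0d2 (0.407) and the ectonucleotidase Nt5e (0.414) for Cyp2c39.

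Of the 8 other rows named Cyp2c, 4 had enough counts to be tested. Cyp2c55, which lies before Cyp2c29 on the chromosome, was at 1.77 to 3.92 CPM in FWT, 3.95 to 8.18 in MWT, 8.96 to 12.5 in FKO and 10.4 to 15.9 in MKO mice. It was 3.88-fold higher in ESR1KO than in WT females (adjusted p = 0.00025, edgeR) and 2.25-fold higher in ESR1KO than in WT males (adjusted p = 0.03, edgeR), and the call in males was lost without MWT 2, MWT 3, MKO 1, MKO 2 or MKO 3 (0.0146 to 0.183). Cyp2c53-ps was scarce, at 0.0344 to 0.321 CPM in WT females and 0.682 to 2.34 in ESR1KO females, a log2 difference of 3.50 ± 0.68 (adjusted p = 0.00596, edgeR). Cyp2c70, which makes muricholic bile acids, was at 253 to 714 CPM over all mice and Cyp2c23 at 163 to 429, and neither passed in any of the 6 comparisons.

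Between the outermost members or within 500 kb of them, 13 genes other than the members were tested. Cyp2c55 and Cyp2c53-ps passed in the WT sex comparison, both with lower values in females. The Cyp2c55 call (adjusted p = 0.0294, edgeR) was lost with the WT groups fitted alone (0.0934) and without FWT 1, FWT 3, MWT 1 or MWT 2 (0.00612 to 0.189). In females the genotype comparison added Pdlim1, an actin-associated adaptor, at a log2 difference of -0.43 (adjusted p = 0.0229, edgeR). Cyp2c55 passed in males and Cyp2c53-ps in the interaction (adjusted p = 0.0155, edgeR), the latter lost without FWT 1 or FWT 2 (0.00366 to 0.0627).

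Few partners and regulators of these enzymes passed. Of 4 electron donor genes, Por passed in 1 comparison, with 539 ± 46.2 CPM in FWT and 277 ± 84.2 in FKO mice (1.95-fold lower, adjusted p = 0.0301, edgeR). The Por call was lost when any WT female, FKO 1 or FKO 2 was left out (adjusted p from 0.0116 to 0.123). Of 5 other epoxygenases and epoxide hydrolases, Ephx2, which opens the fatty acid epoxides, was 1.66-fold lower in WT females than in WT males (adjusted p = 0.0233, edgeR). This call was lost without FWT 2, FWT 3, MWT 1 or MWT 2 (0.0051 to 0.133), and it was the list's only call by edgeR. At an unadjusted p under 0.05 (edgeR), 0 of the 5 were higher and 4 lower in WT females than in WT males. By the same measure 4 were higher and 0 lower in ESR1KO than in WT females. DESeq2 called 2 lower in the first of these comparisons and 2 higher in the second. Of the regulators reported, Nr1i3 (the nuclear receptor CAR, 1.93-fold) and Cux2 (70.5-fold) were higher in WT females than in WT males (adjusted p = 0.0202 and 3.75e-06, edgeR). Of these, the Nr1i3 call was lost without FWT 1, FWT 3, MWT 1 or MWT 2 (adjusted p from 0.00387 to 0.115). Of these regulators, Cux2 alone passed elsewhere. It was 9.99-fold lower in ESR1KO than in WT females and 8.41-fold higher in ESR1KO females than in ESR1KO males (adjusted p = 8.78e-05 and 0.0099, edgeR), the second call being lost without MKO 1 or MKO 4 (0.00158 to 0.0547) and with the ESR1KO groups fitted alone (0.0546). It was also 7.05-fold higher in ESR1KO females than in WT males (adjusted p = 0.00924, edgeR), a call lost without MWT 1 or MWT 2 (0.00231 to 0.0572). Hnf4a and Stat5b passed in none of the comparisons by edgeR, although some groups did not overlap. Stat5b was at 68.8 to 70.2 CPM in FWT and 38.3 to 59.2 in FKO mice, without overlap, and overlapped between MWT and MKO. Hnf4a was at 536 to 606 CPM in FWT and 429 to 569 in FKO mice, with overlap. In males it was at 572 to 609 CPM in MWT and 420 to 491 in MKO mice, without overlap. Their part in the Cyp2c differences was not tested.

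Cyp2b10, a gene that answers to CAR, was at 8.75 to 12.4 CPM in FWT, 0.0159 to 0.123 in MWT, 1.36 to 2.84 in FKO and 1.82 to 4.37 in MKO mice. Like Cyp2c38 and Cyp2c39 it was lower in mutant females and higher in mutant males (adjusted p = 7.1e-05 and 4.99e-05, edgeR).

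Among the marker lists, 0 of the 6 leukocyte, 4 endothelial and 4 stellate genes passed in any comparison by edgeR. At an unadjusted p under 0.05 there were at most 3 of a list in a comparison, and DESeq2 called 2 leukocyte genes higher in ESR1KO females than in ESR1KO males and 1 endothelial gene higher in ESR1KO than in WT females. Of 4 cholangiocyte genes, Epcam (higher) and Sox9 (lower) passed between WT females and WT males, Epcam and Krt19 were higher in ESR1KO than in WT males, and Epcam passed in the interaction and was higher in ESR1KO females than in WT males. Of 9 pericentral hepatocyte genes, Cyp1a2 and Lgr5 had lower values with the knockout in females, where Hsd17b13 of 8 periportal genes was higher. Most periportal genes did not go with Hsd17b13. At an unadjusted p under 0.05 (edgeR), 1 periportal gene was higher and 4 lower, and 0 pericentral genes were higher and 5 lower. The median log2 difference in females was -0.41 for the periportal and -0.49 for the pericentral list. Single ESR1KO females differed here. In FKO 1 to 5, Glul was at 614, 635, 1088, 1055 and 1036 CPM and Cyp1a2 at 202, 204, 426, 330 and 433. In FWT they were at 998 to 1432 and 483 to 783. FKO 1 and FKO 2 were also the lowest ESR1KO females for Cyp2e1, Oat, Rhbg and Tbx3, but not for Slc1a2, Lgr5 and Axin2. Cyp2f2 of the periportal list was lower in WT females, and Cyp1a2 and Cyp2f2 were lower in ESR1KO females, than in WT males. Between the WT sexes the periportal median log2 difference was 0.20, opposite in sign to Cyp2f2. At an unadjusted p under 0.05 (edgeR), 0 periportal genes were higher and 2 lower in WT females. Between ESR1KO females and WT males the periportal median was -0.26. Alb was 1.58-fold higher in WT females than in WT males (adjusted p = 0.0382, edgeR). The Alb call was lost in 11 of the 15 omissions of 1 library. Of the 4 hepatocyte genes, DESeq2 called 1 higher and 2 lower in WT females, and the median log2 difference was -0.0024. Apoa1 was at 4206 ± 1083 CPM in FWT and 6548 ± 411 in MWT mice, and Ttr at 4053 ± 122 and 5168 ± 662. Tat was at 1610 ± 471 and 1267 ± 120. Apart from Epcam between the WT sexes, each of these marker calls by edgeR at an adjusted p under 0.05 was lost without 1 or more single libraries. Their part in the Cyp2c differences was not tested.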

How the data were processed

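Liver RNA of 15 mice was depleted of ribosomal RNA and sequenced as paired ends, with top-up for libraries low in reads. The authors trimmed reads (Trimmomatic 0.36), mapped them with STAR (build GRCm38) and summed them over genes with HTSeq. The deposited values are raw counts, 1 column per mouse, and no column was left unused. Groups follow the labels, and each replicate is a separate mouse.

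Genes were kept by filterByExpr, scaled by TMM and fitted in edgeR 4.0.16 (R 4.3.3) with a mean per group over all 15 libraries, as 1 quasi-likelihood model. Benjamini-Hochberg adjustment covered all 17655 genes tested, and a gene passed at an adjusted p under 0.05. The fit was tested on simulated data. Log2 CPM used a prior count of 2. Levels per kilobase used the longest coding GENCODE M21 transcript, or as an alternative added after seeing the data the union of exons. Promoters were compared with Biopython 1.88. DESeq2 1.42.0, other scalings and filters, a fold minimum, the groups compared alone, a replicate block and omission of each library were alternatives. Chi-square per gene between 2 replicates was 26.1 or more, so no library was a repeat of another.

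Named genes were all members, every other Cyp2c row, short lists of partners, regulators and cell markers, tested neighbours within 500 kb and, for members with a log2 difference of at least 1.5, the 2 nearest genes by pattern. Members and lists were chosen with earlier results of these data known. One gene of the regulator list is not reported here. P values measure the spread between these mice.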

Additional observations from a re-analysis of the deposited data

Results flagged for a closer look

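The genotype effect differed between females and males, by the interaction term of the edgeR fit, for 6 of the genes named in the text. The log2 interaction was -2.69 for Cyp2c38 and -3.10 for Cyp2c39, whose RNA was lower in ESR1KO than in WT females and higher in ESR1KO than in WT males. It was 1.09 for Cyp2c67, higher in ESR1KO than in WT females, a call lost in 7 of the 15 omissions of 1 library. Cyp2c53-ps had 4.15, from 20 counts over the 3 WT females, and did not pass without FWT 1 or FWT 2 (adjusted p up to 0.0627, edgeR). Cyp2b10 had -8.06, from 7 counts over the 3 WT males, so its size is uncertain. Epcam, a cholangiocyte marker at 1.58 CPM or less in every mouse, had -1.17, a call lost in 12 of these omissions and with no filter on low counts. No member had a single mouse far from the rest of its group in the groups of 4 and 5.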

How the results depend on the processing

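Of the member comparisons, 8 passed between the WT sexes, 3 between the ESR1KO sexes, 6 between genotypes in females and 2 in males, 3 in the interaction and 6 between ESR1KO females and WT males. With a log2 fold change of at least 1.5 required, the counts were 5 between the WT sexes, 2 between genotypes in females and 1 in males. Between the ESR1KO sexes, 6 members passed with DESeq2 and 5 with no filter on low counts. Leaving out 1 library at a time gave 6 to 8, 3 to 4, 3 to 6, 2 to 2, 2 to 3 and 5 to 6 members in the 6 comparisons. The 3 in females came without FWT 2 or without FWT 3.

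Directions turned for small differences that had not passed. In females, the Cyp2c54 genotype effect was -0.054 with the replicate block. With no filter the interactions of Cyp2c68 and Cyp2c50 were 0.012 and 0.021. Over the omissions of 1 library, the log2 ranges that crossed 0 were -0.14 to 0.052 for Cyp2c29 between the ESR1KO sexes. For genotype in females they were -0.23 to 0.017 for Cyp2c68, -0.11 to 0.15 for Cyp2c54 and -0.019 to 0.22 for Cyp2c50. For genotype in males they were -0.16 to 0.16 for Cyp2c68 and -0.27 to 0.087 for Cyp2c37. For the interaction they were -0.050 to 0.22 for Cyp2c29, -0.24 to 0.088 for Cyp2c68, -0.37 to 0.34 for Cyp2c40 and -0.16 to 0.093 for Cyp2c50. Between ESR1KO females and WT males the range was -0.0085 to 0.24 for Cyp2c67. The cause of these changes was not tested.

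Replicate numbers were shared by the groups, but 1 of the 19 pairs of same-numbered libraries had a correlation of deviations over 0.1 (range -0.195 to 0.14), so the numbers were not read as pairs. With the number as a block, 8, 3, 6, 2, 3 and 6 members passed in the 6 comparisons. Calls for Cyp2c38, Cyp2c39, Cyp2c40, Cyp2c68 and Cyp2c69 that passed in the text held in every omission of 1 library. Calls for Cyp2c29, Cyp2c37 (between genotypes), Cyp2c54 and Cyp2c67 did not. Reads shared within the Cyp2c40 subgroup limit the levels of its members.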
